A study of Drosophila melanogaster with 8 samples.

Results

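*Tob*, *Rbp6* and *Unr* are 3 genes for proteins that act on mRNAs, and the authors called dFOXO ChIP-Seq regions near each of them. They were found by name in the deposited lists of dFOXO regions. The 3 genes were chosen by their presence and their enrichment in these lists, so the enrichments below describe them and are not tested. Together they had 4 entries, 2 in the list from *chico* heterozygotes (*Tob* and *Rbp6*) and 2 in the list from IPC-ablated flies (*Rbp6* and *Unr*). The lists hold 2801 genes in all, of which 2042 are in the *chico* list, 1012 in the IPC list and 253 in both.

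dFOXO is the forkhead transcription factor that insulin signaling keeps in the cytoplasm, and reduced signaling lets it enter the nucleus and act on its target genes. Tob belongs to the antiproliferative BTG/Tob family, whose mammalian members bridge target mRNAs to the CCR4-NOT complex, which removes their poly(A) tails. Rbp6 is an RNA-binding protein with RNA recognition motifs and a relative of Musashi. Unr is a cold shock domain protein. In female flies it binds *msl-2* mRNA together with Sex-lethal and blocks its translation, which keeps the dosage compensation complex from forming.

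The study sequenced 8 samples of whole female adults aged 15 days, each from 200 to 250 flies. For each genotype there were 2 samples of ChIP DNA, precipitated with an anti-dFOXO antibody, and 2 of input DNA taken before the precipitation. The *chico* flies were heterozygous for the *chico1* mutation in the insulin receptor substrate, on a background with *y1*, *cn1* and *ry506*. In the other flies ablation removed part of the insulin-producing cells (IPCs) in the brain, with *Dilp2-GS-Gal4*, active in these cells, driving the cell death gene *UAS-rpr* under RU486 feeding for 15 days. No wild-type ChIP sample is among the 8, so binding is given against input and not against normal insulin signaling. In whole flies, stronger binding in a few cells cannot be told from weaker binding in many.

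Reads of both replicates were pooled by the authors before regions were called. Each region therefore has a single ChIP value and a single input value, with no replicate error, and the intervals given here are 95% exact binomial intervals that cover counting error only. The unit is the tag, an aligned read in the region. Input tags were scaled by the authors to match the ChIP library, and enrichment means ChIP tags divided by scaled input tags. Listed regions held from 402 to 1116 ChIP tags per kb in *chico* and from 172 to 782 after IPC ablation. Coordinates are those of the lists, whose genome build is not given in the sources used here.

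The strongest of the 4 regions was at *Tob* in *chico*. *Tob* (FBgn0028397) lies on the minus strand of X from 15973047 to 15985369, and its region runs from 15985348 to 15985924. There were 644 ChIP tags against 256 scaled input tags, an excess of 388. The enrichment was 2.52 (interval 2.17 to 2.92), the highest of 1331 *chico* regions. An interval for the highest of many regions takes no account of that selection. The next 4 regions were at *jing* (2.05), *rut* (1.96), *caps* (1.89) and *CG6847* (1.77). The interval of *Tob* overlapped that of *jing* (1.84 to 2.27) and that of *rut* (1.72 to 2.24), but not that of *caps* (1.67 to 2.15) or of *CG6847* (1.50 to 2.08). On the X chromosome *Tob* stood first among 275 regions.

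The high ratio at *Tob* came with a high ChIP density and an ordinary input density. The ChIP density was 1116 tags per kb, the highest of all *chico* regions, against a list median of 488. The scaled input density was 444 tags per kb, against a list median of 441. Its percentile among *chico* regions was 51.7. In number of excess tags the *Tob* region stood second in the list. The regions at *rut*, *caps* and *jing* had 1034, 1016 and 986 ChIP tags per kb, and input densities of 528, 536 and 482 tags per kb.

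**Figure D1:**
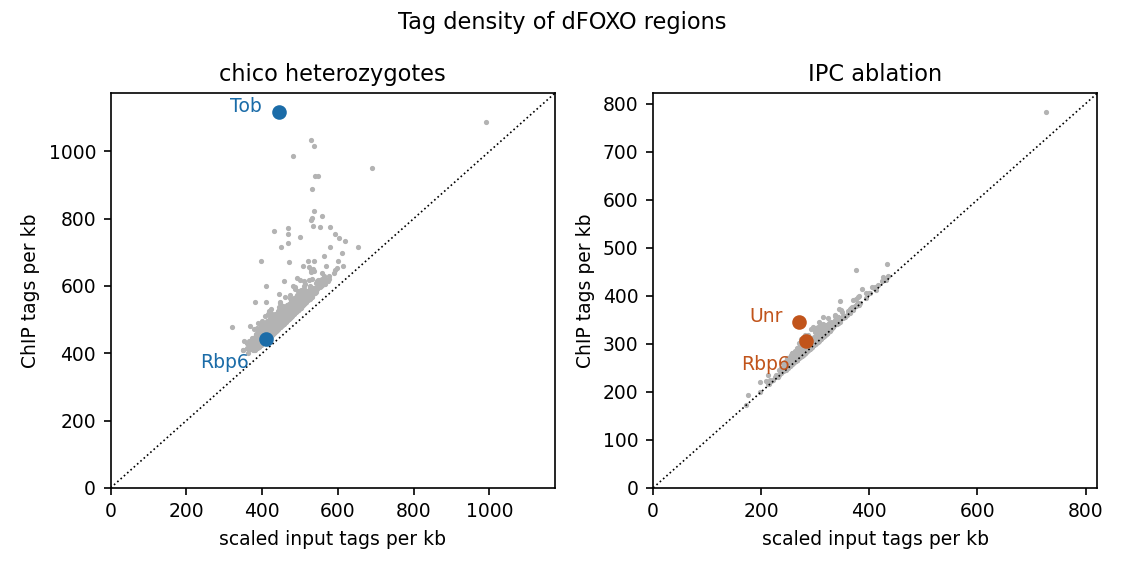
ChIP tags per kb (vertical axis) against scaled input tags per kb (horizontal axis) for every listed region, with *chico* on the left and IPC ablation on the right. The dotted line marks equal densities, and coloured points are the regions at *Tob*, *Rbp6* and *Unr*. *Tob* lies at 1116 ChIP and 444 input tags per kb, above all other *chico* regions on the vertical axis.

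The *Tob* region was also narrow and lay almost wholly outside the listed gene. Its width was 577 bp, and 5 of the 1331 regions were narrower (median width 1395 bp). The list places it inside the gene on the 5' side, but 22 bp (3.81% of the region) lie in the gene and 555 bp lie upstream of its 5' end. Its centre is 267 bp upstream of that end. The label seldom went with so little overlap. Of 666 *chico* entries with it, 5 had a share in the gene as low as that of *Tob* or lower, 90 (13.5%) had under 50% of the region in the gene, and the median share was 100%. A region that spans the 5' end of a listed gene was found in 329 of the *chico* regions (24.7%).

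*Tob* was the single gene listed for its region, as was the case in 808 *chico* regions (60.7%). The nearest other *chico* region, at *CG8939*, was 91718 bp away and had an enrichment of 1.08. The IPC list has no entry for *Tob* by symbol, identifier or alias, and its nearest region to the gene, at *disco*, was 129303 bp away with an enrichment of 1.03. Tag numbers at *Tob* after IPC ablation were not analysed here, so the genotypes cannot be compared at this gene.

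**Figure D2:**
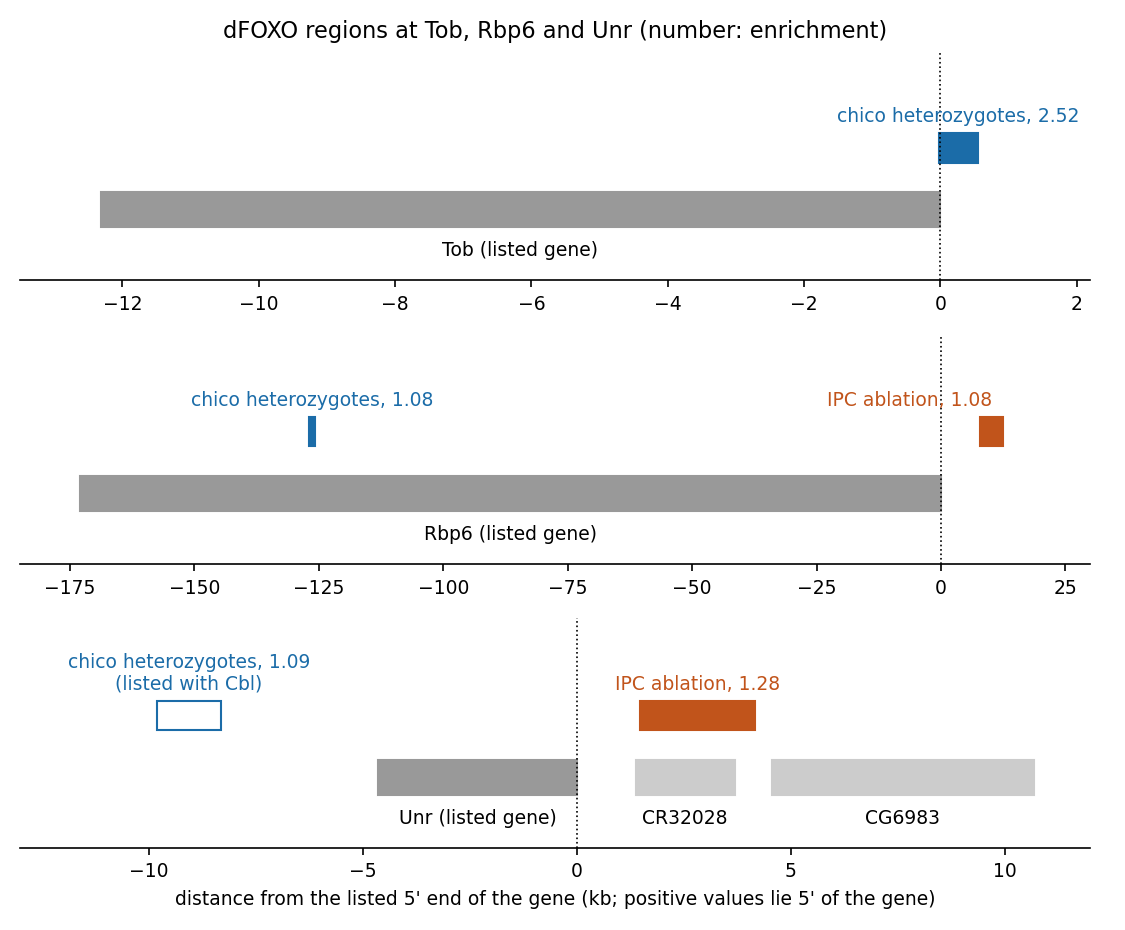
Listed genes (grey bars) and dFOXO regions (blue, *chico*; orange, IPC ablation) at *Tob*, *Rbp6* and *Unr*, drawn to scale in kb from the listed 5' end of the gene (dotted line), with the enrichment beside each region. The *Tob* region sits on the 5' end, the *Rbp6* regions lie toward opposite ends of the gene, and the *Unr* region lies over *CR32028*. The open box is a *chico* region listed with *Cbl*.

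*Unr* had the highest enrichment of the IPC list, although the list pairs the region first with other genes. *Unr* (FBgn0035895) is listed on the minus strand of 3L from 8427149 to 8431786, and the region runs from 8433264 to 8435952. There were 929 ChIP tags against 728 scaled input tags. The enrichment was 1.28 (interval 1.16 to 1.41), the first of 763 IPC regions and of the 185 on 3L. The next regions were at *oc* (1.21, interval 1.10 to 1.33), *Ddr* (1.14), *CG18375* (1.14) and *ome* (1.13). The interval of *Unr* overlapped those of all 4, which reached 1.28 at *Ddr*, 1.22 at *CG18375* and 1.26 at *ome*. The scale differs from that in *chico*, where enrichments had a median of 1.10 and reached 2.52, while in the IPC list the median was 1.02.

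At *Unr* the ChIP density was above and the input density below the middle of the list. The region had 345 ChIP tags per kb, 69th of 763 and above the list median of 301. It had 271 scaled input tags per kb, against a list median of 293, and 20.7% of regions had a lower input density. The region was 2689 bp wide, with 118 of the 763 narrower (median width 6569 bp).

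The region at *Unr* is listed with 4 genes, which was so for 4 or more genes in 12 IPC regions (1.57%). They are *CR32028*, which the region overlaps, *Gug*, the gene for the corepressor Atrophin, *Unr* and *CG6983*. The region lies 5' of *Unr*, with its edge 1477 bp from the gene. It is 3' of *CG6983*, with 392 bp between them, and 5' of *Gug*, with 7463 bp between them. The distances in the IPC list (3681 bp for *Unr*) are counted from a position in each region that the sources used here do not define. It lay more than 1 bp off the midpoint in all 763 regions, by a median of 1160.5 bp and by 859 bp at *Unr*. *CR32028* (FBgn0062463) is listed on the same strand as *Unr*, from 8433161 to 8435480, 1374 bp upstream of the 5' end of *Unr*.

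In the gene table of Release 6 of the genome, *CR32028* is not a gene of its own. Its name is there an older locus tag of *Unr*, and the aliases BcDNA:LD13080 and MRE30 that the IPC list gives it are synonyms of *Unr*. Of the region, 2217 bp (82.4%) lie in the listed *CR32028* and 472 bp lie beyond its 5' end, with the midpoint of the region 872 bp inside that end. With *CR32028* taken as part of *Unr*, the first region of the IPC list lies at *Unr* itself and not at a distance from it. In the same table *CG6983* and then *Gug* follow *Unr* on that side. Coordinates were not converted between releases, so the place of the region among the Release 6 transcripts of *Unr* was not analysed here.

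*Unr* is not in the *chico* list by symbol, identifier or alias. The closest *chico* region, from 8421979 to 8423473, lies 3675 bp beyond the 3' end of *Unr*, inside *Cbl*, a ubiquitin ligase gene, and is listed with *Cbl* alone. With 757 ChIP tags against 698 in the scaled input, its enrichment was 1.09, and the interval began at 0.977. No *chico* region was listed over *CR32028*.

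*Rbp6* is the one gene of the 3 in both lists, with a different region in each. *Rbp6* (FBgn0260943) is on the minus strand of 3L from 17058377 to 17231310. At 172934 bp it was the longest gene of the *chico* list (median 4521 bp), and 1 gene of the IPC list was longer. Among the 20 *chico* genes of at least 100 kb, the number of *chico* regions in the gene ranged from 0 to 3, with a median of 1, which is also the number in *Rbp6*.

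The *chico* region of *Rbp6*, from 17104292 to 17105515, lies inside the gene on its 3' side. Its centre is 126407 bp downstream of the 5' end, at 73.1% of the length of the gene. There were 542 ChIP tags against 501 in the scaled input. The enrichment was 1.08 (interval 0.956 to 1.22), and at this depth ChIP and input could not be told apart. It ranked 997th of 1331, with 25.1% of *chico* regions below it. This rank carries the counting error of the ratio, whose interval holds the list median of 1.10. Both densities were low for the list, at 443 ChIP and 409 scaled input tags per kb. Regions next to it in rank were at *CG3409* and *ZIP1*, *Hrb27C*, *Cda5* and *CG8918*, all with an enrichment of 1.08. *Hrb27C*, the gene for another RNA-binding protein, stood 1 place above it.

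The IPC region of *Rbp6*, from 17239192 to 17243853, lies 5' of the gene, with 7881 bp between its edge and the listed 5' end. Its listed distance of 9789 bp, counted from a position 423.5 bp off the midpoint, is beyond the 5 kb in the study's methods, as in 110 IPC entries (10.9%), and 2 entries had a larger distance. There were 1426 ChIP tags against 1319 in the scaled input. The enrichment was 1.08 (interval 1.00 to 1.17, with its lower bound just above 1). It ranked 44th of 763, with 94.2% of IPC regions below it. This rank too carries the counting error of the ratio, whose interval holds the list median of 1.02. The density was 306 ChIP tags per kb and 283 scaled input tags per kb, close to the list medians of 301 and 293. The regions next to it in rank were at *CG34350*, *CG15631*, *dpr13* and *CG31690*, with enrichments of 1.08.

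*Rbp6* is the single gene listed for this region but has a gene rank of 2 there, and no entry of rank 1 was found, as in 141 of the IPC regions. In the Release 6 gene table, ordered by start position, *Afg3l2* and *CG7707* come after *Rbp6* and before *CG6497*, and neither is in the lists. Whether they lie inside or beyond *Rbp6* was not checked. A second IPC region, listed with *CG6497*, begins 510 bp beyond the IPC region of *Rbp6*. It had an enrichment of 1.05 (interval 0.988 to 1.12), and both regions together held 3564 ChIP and 3354 scaled input tags, a ratio of 1.06 (interval 1.01 to 1.11).

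The *chico* and IPC regions of *Rbp6* had the same enrichment of 1.08, but they are 133676 bp apart and lie toward opposite ends of the gene. The regions were called on separate read pools with input scaled separately, and a difference was not tested. Among the 253 shared genes *Rbp6* stood 10th by the lower of its enrichments. Shared genes had a median enrichment of 1.12 in *chico* and 1.02 after IPC ablation, so this order rests mainly on the IPC values. Its enrichment in *chico* was above that of 18.2% of the shared genes, and its enrichment after IPC ablation was above that of 95.3%.

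**Figure D3:**
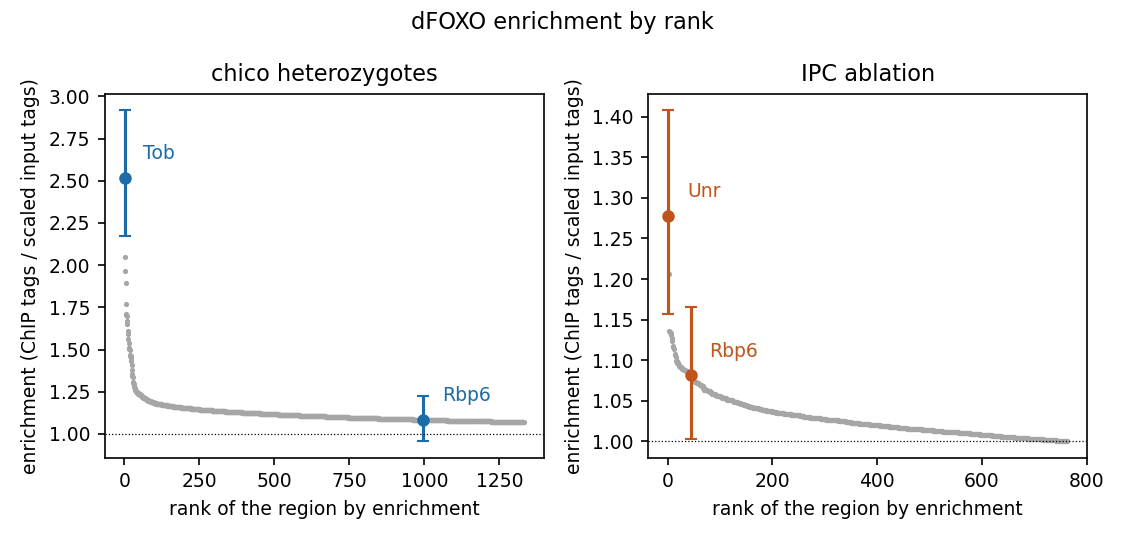
Enrichment of all listed regions in order of rank (grey points), with *chico* on the left and IPC ablation on the right. Coloured points are *Tob*, *Unr* and *Rbp6*, with bars for the 95% exact binomial interval, and the vertical axes differ in scale. *Tob* (2.52) and *Unr* (1.28) stand first in their lists, and *Rbp6* stands 997th in *chico* and 44th after IPC ablation.

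Of the 4 regions, 3 had an interval wholly above 1, *Tob* in *chico* and *Unr* and *Rbp6* after IPC ablation. Over all regions this was so for 41.6% in *chico* and 9.57% after IPC ablation. With input raised by 5%, or with 1 scaling factor for all arms, the interval of *Rbp6* after IPC ablation held 1 (lower bounds 0.955 and 0.995). These values entered the choice of the 3 genes, and nothing is read from the count. The 3 genes share the minus strand. None of the IPC regions overlapped a listed gene body of the 3, and 1, that of *Unr*, lay within 5 kb. With *CR32028* counted as *Unr*, 1 IPC region overlapped. In *chico*, 1 region overlapped the gene body of *Tob* and 1 that of *Rbp6*. Labels inside a gene were common in both lists. Of 2042 *chico* entries, 666 had the 5' side label and 571 (28.0%) the 3' side label. Of 1012 IPC entries these were 486 and 269 (26.6%). Nothing is read from the counts of overlaps.

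Other genes of mRNA decay and RNA binding were taken from written lists. They are 27 genes of deadenylation and its recruiters, 44 genes for RNA-binding proteins of the RRM, KH and related families, and 12 genes that work with or beside Unr in dosage compensation and translation, which are 78 different genes. The *chico* list held 15 of the 78 (19.2%), against 14.3% of all protein-coding genes. The IPC list held 10 (12.8%), against 6.84%. Regions were compared with input using a one-sided exact binomial test with Benjamini-Hochberg adjustment, and a region passed at an adjusted p of 0.01 or less. Adjustment was over 26819 candidate regions in *chico* but over the 763 listed regions after IPC ablation. The passing shares of the lists are therefore not on one scale. In *chico* 0 of the 15 genes were at a passing region, where 2.7% of all regions passed. The smallest adjusted p of the exact test was 0.240. The interval was wholly above 1 for 4 of their 14 regions, against 41.6% of all *chico* regions. After IPC ablation 0 of the 10 genes were at a passing region, where 0.655% of all regions passed. The smallest adjusted p of the exact test was 0.266. The interval was wholly above 1 for 0 of their 11 regions, against 9.57% of all IPC regions.

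Of the 27 deadenylation genes, 4 (14.8%) were listed in *chico* and 2 (7.41%) after IPC ablation, close to the shares of all protein-coding genes. The *chico* entries were *CG13567* (*Not11*), *l(2)NC136* (*Not3*), *brat* and *Pop2*, with enrichments between 1.08 and 1.09. *Not11* and *Not3* are subunits of CCR4-NOT. *Pop2* encodes a deadenylase of the complex, the subunit that mammalian Tob proteins bind. It had 580 ChIP tags against 536 in the scaled input (interval 0.961 to 1.22). The median of the 4 genes, 1.08, was below the median of all *chico* regions, 1.10. All 4 intervals held 1, where 41.6% of all *chico* regions had an interval wholly above 1. After IPC ablation the entries were *pum*, the gene for the translational repressor Pumilio (1.01), and *BicC* (1.01, at a listed distance of 9600 bp).

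Of the 44 RNA-binding protein genes, 11 (25.0%) were listed in *chico*, against 14.3% of all protein-coding genes. A difference in these shares was not tested. The 11 entries had a median enrichment of 1.09. The highest were *glo* (1.18, interval 1.06 to 1.31), *Imp* (1.16, interval 1.03 to 1.30) and *CG16777* (*ps*; 1.15, interval 1.03 to 1.30). The region of *glo* is at a listed distance of 4825 bp and is also listed with *CG6950* and *CG6959*. *Rbp9*, of the ELAV family, had 1.13, *heph* had 1.11 and *xl6* had 1.09. The interval was wholly above 1 for 4 of the 11, *glo*, *Imp*, *ps* and *heph*, against 41.6% of all regions. *Rbp6* (1.08) stood below these genes and *Hrb27C*, at rank 996, and above *rin* and *sqd*, which share a region at rank 1010, *CG17838* (*Syp*) at rank 1047 and *bol* at rank 1224.

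After IPC ablation 8 of the 44 RNA-binding protein genes (18.2%) were listed, against 6.84% of all protein-coding genes. A difference in these shares was not tested. Their 9 entries had a median enrichment of 1.03. The highest were *CG32062* (*Rbfox1*; 1.12, interval 0.995 to 1.25), *aret* (*bru1*; 1.10) and *bru-3* (1.07). Their regions had listed distances of 5444, 9444 and 2458 bp. Of the 10 IPC genes from the written lists, 7 had a listed distance of up to 5 kb. Over all IPC entries 10.9% lay beyond 5 kb. The others were *how* (1.06), *mbl* (1.03), *shep* (1.02), *CG14425* (*Sxl*; 1.02), *CG34243*, which Release 6 joins to *bru-3* (1.01), and *bol* (1.01). All 9 intervals held 1, where 9.57% of all IPC regions had an interval wholly above 1. *bol*, the gene for the germline protein Boule, was in both lists.

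Of these 12 genes around Unr, 1 (8.33%) was listed in *chico* and 2 (16.7%) after IPC ablation. The shares of all protein-coding genes were 14.3% and 6.84%, and a difference was not tested. *Hrb27C*, which acts with Unr and Sex-lethal on *msl-2* mRNA, had an enrichment of 1.08 in *chico*. *how* and *Sxl* were listed after IPC ablation. *Sxl* is there under *CG14425*, an older locus tag of *Sxl* in the Release 6 table. Its region on X, from 6971926 to 6974348, had 1014 ChIP tags against 995 in the scaled input, with an enrichment of 1.02 (interval 0.933 to 1.11). Enrichment at *Sxl* was thus not detectable at this depth, as at most regions of the list. Of all IPC regions, 9.57% had an interval wholly above 1.

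**Figure D4:**
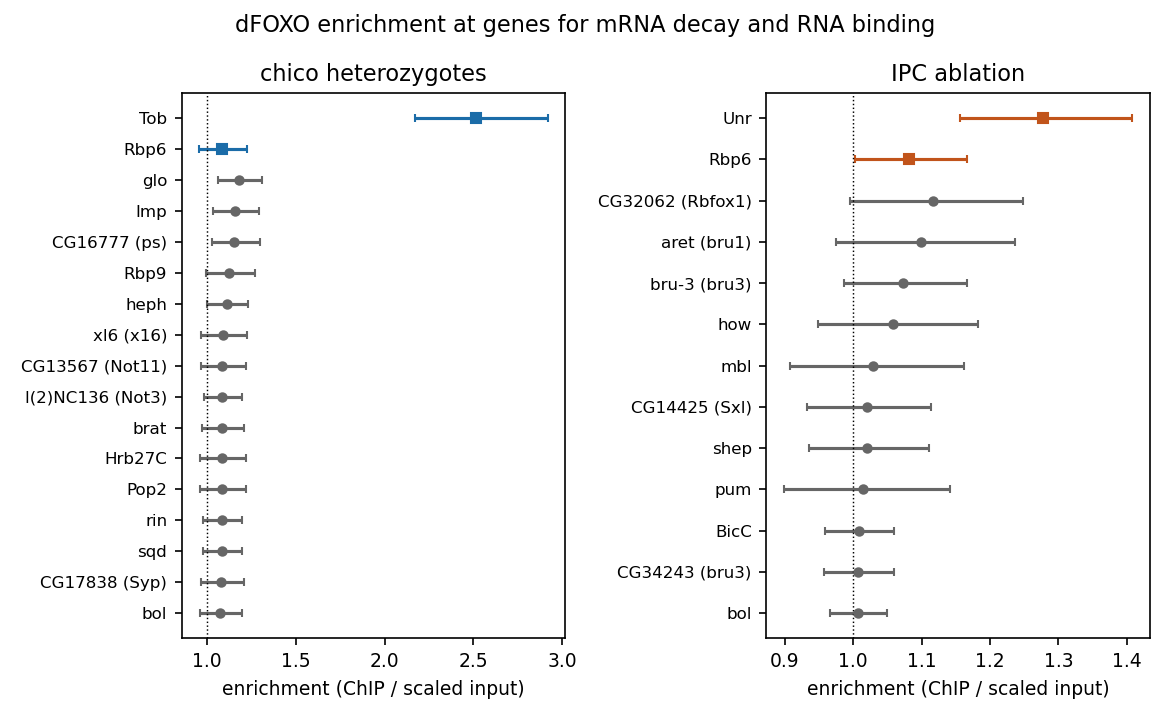
Enrichment (points) with 95% exact binomial intervals (bars) at *Tob*, *Rbp6* and *Unr* (coloured squares, top) and at the listed genes for deadenylation and RNA binding (grey), with *chico* on the left and IPC ablation on the right, on axes of different scale. Names in parentheses are Release 6 symbols. *Tob* (2.52) and *Unr* (1.28) lie above all other listed genes of their panel, where the highest are *glo* (1.18) and *CG32062* (1.12). Both stand first in their whole lists, so this order was fixed by the choice of genes.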

How the data were processed

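Per the labels and the study's methods, reads from CASAVA 1.6 were pooled over 2 replicates by the authors, aligned with Bowtie to a genome whose build is not given in the sources used here, and called with PeakSeq at an FDR of 0.01. Library preparation included PCR, so tags are not independent molecules. The deposited ChIP tags are counts per region without normalization. The deposited input tags are a score: input tags multiplied by a factor per chromosome arm and rounded up. The deposited enrichment, a ratio, divides ChIP tags by the input as scaled and not yet rounded. The authors' height, a signal, was not used. The authors' p-values entered only through the number of candidate regions in *chico*, 26819.

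The 3 genes and the gene lists were chosen with earlier results of these data known. Regions with several genes were counted once. Each region was tested by an exact one-sided binomial test of ChIP against scaled input tags, with Benjamini-Hochberg adjustment over 26819 candidate regions in *chico* and over the 763 listed regions after IPC ablation. The test was tested on simulated data. Intervals of 95% (Clopper-Pearson) were computed for the ChIP share of all tags and turned into ratios. Genes were matched by symbol, locus tag or synonym to a Release 6 RefSeq table (2028 of 2042 *chico* and 992 of 1012 IPC genes, and 93 of 97 written names), used for names and gene order only. Beside the 3 genes, the text names genes listed for the same region, regions next in rank or position, and up to 10 listed genes of the written lists per genotype, by enrichment. *Pop2* falls outside that rule, as do *rin*, *sqd*, *Syp* and *bol* in *chico* and the neighbours from the gene table, which were chosen after their values were seen. Work was done in Python 3.11.15. Versions were SciPy 1.17.1 and NumPy 2.4.6 for tests, pandas 2.3.3 for tables, and Matplotlib 3.10.9 for plots.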

Additional observations from a re-analysis of the deposited data

How the results depend on the processing

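With input tags lowered or raised by 5%, a single factor for all arms, or the ratio of whole tags, the enrichments at *Tob*, *Rbp6* and *Unr* stayed within their intervals. For the shifts of 5% this was fixed in advance, because every interval reaches further than the shift, and it shows nothing about robustness. With input raised by 5% they were 2.40 at *Tob*, 1.03 at *Rbp6* in both lists and 1.22 at *Unr*, and the lower bound at *Rbp6* after IPC ablation fell to 0.955. With 1 factor for all arms that bound was 0.995, and with input lowered by 5% the lower bound at *Rbp6* in *chico* was 1.01. Intervals from input tags before scaling, an alternative chosen after seeing the data, were 2.19 to 2.90 at *Tob*, 0.961 to 1.22 and 1.01 to 1.16 at *Rbp6*, and 1.17 to 1.40 at *Unr*. The percentile of *Rbp6* in *chico* was 29.6 on its own arm and 22.2 among regions of like total tags. After IPC ablation it was 92.1 among regions of like total tags and 91.6 among regions of like width.

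Passing regions in *chico* numbered 144 with input lowered by 5% and 85 with adjustment over the listed regions only, in place of 36. After IPC ablation they numbered 312 with input lowered by 5%, 0 with input raised by 5% and 1 at an FDR of 0.001, in place of 5. Of the listed RNA genes, 0 in *chico* and 0 after IPC ablation had an enrichment of at least 1.2. Few regions reached it at all, those ranked 1 to 75 of 1331 in *chico* and 1 to 2 of 763 after IPC ablation. Of the 10 IPC genes, 3 had a listed distance of up to 1 kb. The share over all IPC entries is not given here, so nothing is read from that count. IPC regions at the 3 genes numbered 1 within 5 kb, and 1 with *CR32028* counted as *Unr*, in place of 0. No paired analysis was possible because the region lists used here were made from reads pooled over replicates, and for the same reason no replicate could be left out. Values per replicate were not analysed here. The planned count of forkhead motifs in promoters was not run.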
